A study of Mus musculus with 5 samples.

Results

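Long noncoding RNAs are transcripts that carry no long open reading frame. They are annotated by position: a lincRNA lies between protein-coding genes, an antisense gene lies on the strand opposite another gene, a sense intronic gene lies within an intron on the same strand, and a processed transcript is a noncoding transcript placed in none of these classes. Some act where they are made on the gene beside them, some act elsewhere in the cell, and some serve as the primary transcripts of miRNAs or as hosts of small nucleolar RNAs. The table of genes that differed between Irf8-OE and control bone marrow-derived dendritic cells (BMDCs) held 1355 genes, of which 99 had a long noncoding biotype. Of these 99, the 95 that lie on an autosome were taken as the long noncoding RNA genes described here, and the 4 on X or Y were set aside. They comprised 48 lincRNA genes, 30 antisense genes, 15 processed transcripts and 2 sense intronic genes, and they lay on 18 autosomes, with 16 of them on chromosome 1.

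The samples were BMDCs grown from the bone marrow of C57BL/6 mice that the labels describe as 8-week-old males, with 3 Irf8-OE samples and 2 control samples. In Irf8-OE mice an Irf8 transgene with a Flag tag, placed at the H11 locus behind a CAG promoter and a loxP-flanked stop, is released by Cre under the Itgax (CD11c) promoter, so overexpression depends on Itgax activity, and the gene encodes a transcription factor needed for dendritic cell development. Controls are named Irf8 CAG-LSL in the study's text, which is the same knock-in without Cre, and wild type in the labels. Marrow of both groups was grown with 5 ng/ml GM-CSF and 200 ng/ml Flt3L, was replated on day 9 and yielded non-adherent cells on days 15 to 16. TNF-alpha at 20 ng/ml is named as a treatment in the labels. Libraries were made from poly-A mRNA and read as 150 bp paired ends, and no step that would mark the strand is described.

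All 1355 genes had already passed the authors' own thresholds on this same contrast, so the values below describe genes chosen for differing, and genes that are not in the table were not analysed here. Values are normalized counts: reads scaled by a size factor for each sample, with no correction for gene length. Coordinates are those of the deposited table, on mm10. Fold changes are differences of mean log2(normalized counts + 1), Irf8-OE minus control, with their standard error (SE) and the Benjamini-Hochberg adjusted p of limma over the 1355 listed genes. Nothing in the labels says whether the samples of a group came from separate animals, so these p-values measure the spread between samples. The listed genes held 646123 to 1062127 reads in a sample, and between 4713 and 10784 of them fell on the 95 long noncoding RNA genes, which was 0.7207% to 0.7347% of the listed reads in Irf8-OE and 1.009% and 1.015% in the controls. Irf8 itself, the overexpressed gene, stood at 7140.8, 6518.7 and 6021.0 normalized counts in Irf8-OE and at 2835.5 and 2747.4 in the controls. Its log2 fold change was 1.23 ± 0.08 (SE, adjusted p = 8e-06), and the exact one-sided permutation p was 0.1, the smallest that 3 samples against 2 allow.

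The groups also differed in their cell and sex markers. Xist stood at 10771.6 to 13476.3 normalized counts in Irf8-OE and at 1.124 and 0 in the controls, whereas Uty, Kdm5d, Eif2s3y and Ddx3y, which are Y-linked, were at 0 in each Irf8-OE sample and between 484.4 and 1384.6 in the controls, which goes against the label of male mice for the Irf8-OE libraries. Sex and genotype therefore cannot be told apart. Of 12 mast cell or basophil markers, 9 were listed, of which 7 fell and 2 rose, and their sum was 35749.3 to 39515.9 in Irf8-OE and 230512.9 and 234954.9 in the controls. Higher in Irf8-OE were all listed B or plasma cell markers (6 of 9 markers, summed 3476.9 to 3924.0 against 191.1 and 235.1), macrophage markers (6 of 10, summed 22634.9 to 27304.9 against 4557.2 and 4737.6) and stromal markers (6 of 10, summed 10723.4 to 11756.0 against 2526.4 and 2596.7). Of 6 neutrophil markers 3 were listed, 2 higher and 1 lower, with sums of 1243.4 to 1298.7 against 332.7 and 264.9. No listed marker other than the Y-linked genes was at 0 in every sample of a group. Of 10 dendritic cell markers Itgae alone, which encodes CD103, was listed (143.8 to 177.8 against 50.57 and 52.78), so the label could not be checked against the rest. In bulk samples fewer cells of a type and less RNA per cell cannot be told apart, and the part of these markers in the results below was not tested.

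Most of the long noncoding RNA genes were lower in Irf8-OE. Of the 95 genes 77 were lower and 18 were higher, so 81.1% were lower, whereas 436 of 1130 listed protein-coding genes were lower (38.6%). By limma, with a log2 fold change beyond 1 in either direction at an adjusted p below 0.05, 93 of the 95 were called, 76 of them lower and 17 higher. Because the list was preselected, 99.1% of all listed genes were called, 41.0% as lower and 58.1% as higher. The groups were free of overlap in 95 of the 95 genes, as in 100% of the listed genes. The number called is thus near the background. F730016J06Rik (log2 fold change -0.99) and Gm45188 (log2 fold change 0.99) missed the fold threshold. The median log2 fold change was -1.48 over the 95 genes, with a range from -3.75 to 3.86, against 1.14 over all listed genes and 1.16 over the listed protein-coding genes.

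Among the lincRNA genes 43 of 48 were lower, and among the processed transcripts 13 of 15 were lower. Of the antisense genes 20 were lower and 10 were higher. Of the sense intronic genes Gm13053 was lower and Gm43031 was higher. The difference in direction between biotypes was not tested. The median log2 fold change was -1.65 among the lower genes and 1.79 among the higher genes. Over all listed genes, which had passed a fold threshold in both directions, these medians were -1.65 and 1.81. The like size in both directions is thus near the background. Of the 95 genes, 34 (27 lower and 7 higher) had an absolute log2 fold change of at least 2. Summed over the 77 lower genes, normalized counts were 3277.1, 3391.0 and 3482.1 in Irf8-OE and 9843.9 and 9960.8 in the controls. Summed over the 18 higher genes they were 1323.7, 1337.9 and 1251.4 in Irf8-OE and 382.1 and 387.7 in the controls.

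**Figure D1:**
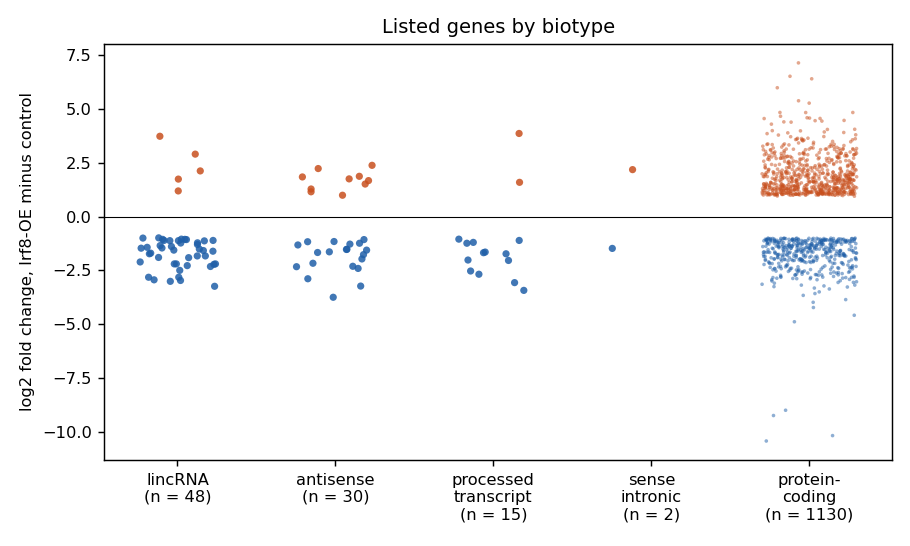
Log2 fold change (Irf8-OE minus control, on log2(normalized counts + 1)) of every listed autosomal long noncoding RNA gene by biotype and of the listed protein-coding genes, with each point 1 gene, orange above 0 and blue below 0. The lincRNA column holds 43 points below 0 and 5 above, and the protein-coding column 436 below and 694 above.

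These genes were weakly expressed. Their median level was 13.6 normalized counts per kilobase, against 26.3 for the listed protein-coding genes. The mean over the 5 samples lay between 3.296 and 601.4 normalized counts per gene, 67 genes reached 20 and 14 reached 100. A floor of 3 reads, which covers counting error only, corresponded to 2.801 to 3.372 normalized counts. Gm1968 did not exceed 3 reads in either control, and 9 genes did not exceed 3 reads in any Irf8-OE sample, namely 1700097N02Rik, 2410003L11Rik, 4833403J16Rik, AC125141.3, CAAA01141682.2, Gm13522, Gm15856, Gm31904 and Gm44226. For these a fold is a lower bound. Setting the 10 genes at their bound left the median log2 fold change at -1.47.

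Per kilobase, the 5 most highly expressed genes were Gm35037 (714.0 normalized counts per kilobase over all samples), 1700016F12Rik (264.1), E330020D12Rik (263.0), Gm6209 (126.6) and A530040E14Rik (118.2). The first 4 were lower in Irf8-OE and the last was higher. E330020D12Rik, a processed transcript at chr1:153404827-153414233 (minus strand) that overlaps no annotated gene, had 336, 329.6 and 294 normalized counts in Irf8-OE against 1069.9 and 978 in control BMDCs. Its values in the controls lay close to each other and well above the Irf8-OE samples, with a log2 fold change of -1.68 ± 0.09 (SE, adjusted p = 4.5e-06). Gm6209 (chr3:50516399-50607223, minus strand), another processed transcript, had 259, 238 and 257 normalized counts in Irf8-OE against 783 and 795 in control BMDCs, which gave a log2 fold change of -1.65 ± 0.08 (SE, adjusted p = 3.2e-06). The lincRNA gene 1700016F12Rik (chr5:96849505-96852938, plus strand), with 2 exons and no overlapping gene, showed 84.4, 88.7 and 94.4 normalized counts in Irf8-OE against 274 and 323 in control BMDCs. For this gene the log2 fold change was -1.73 ± 0.13 (SE, adjusted p = 1.8e-05). Gm35037 (chr7:3451357-3475020, plus strand) changed least among them, with 256, 263 and 232 normalized counts in Irf8-OE against 523 and 533 in control BMDCs and a log2 fold change of -1.07 ± 0.09 (SE, adjusted p = 3.5e-05). It lies 11480 bases from Tarm1, a myeloid cell surface receptor, which was lower as well (log2 fold change -1.81 ± 0.06 SE).

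Among the genes with a mean of at least 20 normalized counts, the largest decreases were found for 5830444B04Rik, D630033O11Rik, Gm32051, Gm15663 and A330023F24Rik. D630033O11Rik, a lincRNA gene at chr9:43243599-43280076 (plus strand) with no overlapping gene, had 12.5, 14 and 13.1 normalized counts in Irf8-OE against 102 and 113 in control BMDCs. The Irf8-OE samples lay within a narrow range far below both controls, and the log2 fold change was -2.94 ± 0.22 (SE, adjusted p = 1.6e-05). Gm32051, a lincRNA gene at chr5:105409367-105415670 (plus strand), was more variable, with 9.59, 27.1 and 16.1 normalized counts in Irf8-OE against 134 and 108 in control BMDCs. Its highest Irf8-OE sample lay below both controls, as in every listed gene that fell, and its log2 fold change was -2.82 ± 0.41 (SE, adjusted p = 0.00043). The strongest increases at this level were those of D130058E05Rik and Gm2694, which overlap listed coding genes and are described with them, followed by Gm16094, AC140186.1 and A530040E14Rik. AC140186.1, a lincRNA gene at chr16:32550211-32553708 (plus strand) that overlaps Zdhhc19 on the same strand without sharing an exon base, had 80.5, 66.3 and 67.3 normalized counts in Irf8-OE against 16.9 and 14.4 in control BMDCs, a log2 fold change of 2.12 ± 0.22 (SE, adjusted p = 7.8e-05). Gm16094, a short antisense gene of 2 exons at chr1:85599286-85599839 (plus strand), had 18.2, 35.5 and 43.2 normalized counts in Irf8-OE against 5.62 and 5.76 in control BMDCs. Its Irf8-OE values were spread over a wide range, and its log2 fold change was 2.23 ± 0.40 (SE, adjusted p = 0.0012).

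**Figure D2:**
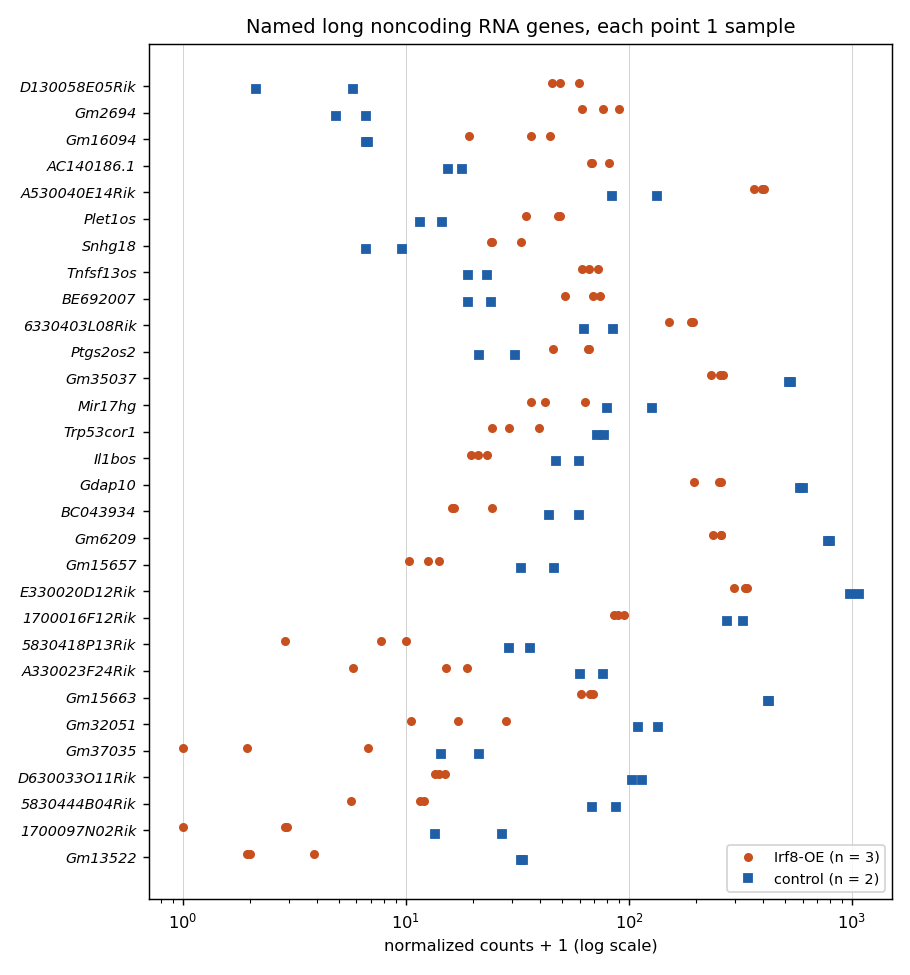
Normalized counts + 1 (log axis) of the 30 named long noncoding RNA genes, ordered by log2 fold change, with orange circles for the 3 Irf8-OE samples and blue squares for the 2 control samples. In each row the groups do not overlap, which holds for 100% of the listed genes, and the smallest gap is that of Mir17hg, whose lowest control value is 1.264 times its highest Irf8-OE value.

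Symbols other than Gm numbers, Rik names and contig names were carried by 10 genes, 5 higher and 5 lower, among them the sequence names BC043934 and BE692007. Few members of the lists of known long noncoding RNAs were in the table. Of the snoRNA hosts Snhg18 was listed and rose, of the miRNA hosts Mir17hg was listed and fell, and of the immune list Ptgs2os2 rose while Il1bos and Trp53cor1 fell. No gene of the imprinted list (H19, Meg3, Kcnq1ot1 and others) or of the nuclear list (Malat1, Neat1 and others) was in the table. Among 4 genes named for the strand opposite a coding gene, 3 rose (Plet1os, Tnfsf13os and Ptgs2os2) and Il1bos fell.

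Ptgs2os2, known as lincRNA-Cox2, is a lincRNA gene of macrophages and dendritic cells that is induced by Toll-like receptor ligands together with Ptgs2. It lies at chr1:150159043-150164948 (minus strand), 50816 bases from Ptgs2 with the 2 genes tail to tail. Ptgs2os2 had 65.2, 44.8 and 64.3 normalized counts in Irf8-OE against 20.2 and 29.8 in control BMDCs. The log2 fold change was 1.19 ± 0.28 (SE, adjusted p = 0.0043), and it fell under the fold threshold without control replicate 1 (0.92), after quantile normalization (0.75), with TMM (0.88) and with a pseudocount of 10 (0.96). Ptgs2, which encodes cyclooxygenase 2, had 1008.3, 1086.8 and 1174.1 normalized counts in Irf8-OE against 473 and 428 in control BMDCs, a log2 fold change of 1.27 ± 0.09 (SE, adjusted p = 1.4e-05). Both genes were higher in each Irf8-OE sample than in either control, as was every listed gene that rose.

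Trp53cor1, known as lincRNA-p21, is a p53 target that lies upstream of the cell cycle inhibitor Cdkn1a, and shares 1645 exon bases with annotated genes that are not protein-coding. It had 38.3, 23.3 and 28.1 normalized counts in Irf8-OE against 76.4 and 71.0 in control BMDCs, with a log2 fold change of -1.30 ± 0.26 (SE, adjusted p = 0.002). The nearest listed coding gene was Rab44, an atypical large Rab GTPase, 34966 bases away and head to head with it. Rab44 was lower too, with 2577.4, 2287.4 and 2194.5 normalized counts in Irf8-OE against 7925.4 and 8300.6 in control BMDCs and a log2 fold change of -1.79 ± 0.08 (SE, adjusted p = 1.8e-06). Il1bos, which shares 25 exon bases with Il1b on the opposite strand, had 20.1, 18.7 and 22.1 normalized counts in Irf8-OE against 58.4 and 46.1 in control BMDCs, a log2 fold change of -1.32 ± 0.24 (SE, adjusted p = 0.0013). Il1b, the gene of interleukin-1 beta, was not in the table used here. BC043934, a lincRNA gene at chr9:96435783-96438138 (minus strand) with no overlapping gene, had 15.3, 23.3 and 15.1 normalized counts in Irf8-OE against 42.7 and 58.5 in control BMDCs, and its log2 fold change was -1.46 ± 0.30 (SE, adjusted p = 0.0023). Snhg18, a snoRNA host at chr15:32240565-32244662 (minus strand), had 31.6, 23.3 and 23.1 normalized counts in Irf8-OE against 5.62 and 8.64 in control BMDCs. It rose by a log2 fold change of 1.74 ± 0.31 (SE, adjusted p = 0.0012), which was 0.73 (adjusted p = 0.059) after quantile normalization.

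Mir17hg is the primary transcript of the miR-17-92 cluster, whose miRNAs promote proliferation and survival in lymphocytes and other cells. The gene lies at chr14:115042879-115046727 (plus strand) and holds 6 miRNA hairpins. It had 41.2, 35.5 and 62.3 normalized counts in Irf8-OE against 126 and 78.7 in control BMDCs. Its groups lay nearer each other than those of any of the other 94 genes, and the log2 fold change was -1.13 ± 0.31 (SE, adjusted p = 0.009). Without control replicate 1 it was -0.79 (adjusted p = 0.1) and without Irf8-OE replicate 2 it was -0.96 (adjusted p = 0.033), so the call rested on these samples, and with a pseudocount of 10 it was -0.99. RefSeq (GRCm38.p6) holds 11 mature miRNAs of the cluster, with 9 seeds. A selection of 6, with 1 from each hairpin, is shown because these are products of this transcript and fall into groups by their seed, which is bases 2 to 8, in capitals.
miR-17-5p: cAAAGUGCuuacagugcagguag
miR-20a-5p: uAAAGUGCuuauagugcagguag
miR-18a-5p: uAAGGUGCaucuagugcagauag
miR-19a-3p: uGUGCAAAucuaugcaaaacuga
miR-19b-3p: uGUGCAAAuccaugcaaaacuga
miR-92a-3p: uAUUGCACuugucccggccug
In these sequences miR-17-5p and miR-20a-5p share the seed AAAGUGC and miR-19a-3p and miR-19b-3p share the seed GUGCAAA. The levels of the mature miRNAs were not measured in these poly-A libraries.

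Another miRNA host was among the strongest decreases. A330023F24Rik (chr1:194976375-195037904, plus strand), a processed transcript of up to 8 exons, holds the hairpins of miR-29b-2 and miR-29c near its 3′ end. It had 4.79, 17.7 and 14.1 normalized counts in Irf8-OE against 75.3 and 59.5 in control BMDCs. The highest Irf8-OE sample was well below the lower control, and the log2 fold change was -2.53 ± 0.51 (SE, adjusted p = 0.0021). The miR-29 family is known for binding the mRNAs of collagens and other matrix proteins. Its main products are shown for the seed they share.
miR-29b-3p: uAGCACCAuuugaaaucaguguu
miR-29c-3p: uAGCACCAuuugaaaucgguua
Both carry the seed AGCACCA. Gm16897, an antisense gene that shares 426 exon bases with A330023F24Rik, had 15.3, 19.6 and 17.1 normalized counts in Irf8-OE against 46.1 and 38.4 in control BMDCs, a log2 fold change of -1.24 ± 0.25 (SE, adjusted p = 0.0022). Cd46, a complement regulator on the opposite strand, shares 1079 exon bases with A330023F24Rik and was not in the table used here. Unless the counting used strand, reads in these shared bases cannot be told apart. Of the other genes, Gm37233, with a log2 fold change of -1.47 ± 0.12 (SE, adjusted p = 2.7e-05), holds the hairpin of miR-5103 and AC125141.3 those of miR-7217 and miR-7218. AC125141.3 was at or near 0 in Irf8-OE, with 0.9585, 0 and 0 normalized counts in Irf8-OE against 10.1 and 7.68 in control BMDCs, and was at least 3.071-fold lower there.

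Position beside other genes was examined next, since a noncoding gene and its neighbour can share a promoter region or a chromatin domain. Of the 95 genes, 43 overlapped an annotated protein-coding gene (39 of them on the opposite strand) and 34 overlapped no annotated gene. In 16 cases an overlapped coding gene was itself listed, and in 27 the overlapped coding genes were not in the table. A listed coding gene lay within 100 kb of 39 of the genes. In 36 of these 39 pairs (92.3%, exact Clopper-Pearson 95% interval 79.1% to 98.4%) the fold changes had the same sign, with 25 pairs lower and 11 pairs higher. For listed protein-coding genes and their own nearest listed protein-coding gene the share was 251 of 323 genes (77.7%, 72.8% to 82.1%). Coding genes nearest to each other were counted from both sides, which this interval does not take into account. Pairs share samples and partly share genes, the difference between the shares was not tested, and genes lower in Irf8-OE prevailed among the noncoding genes but not among the coding ones.

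Among these pairs, which could form only with a coding gene that was itself listed, the share fell with distance. It was 16 of 16 for overlapping pairs, 7 of 7 for gaps of 1 base to 10 kb, 13 of 16 (81.2%) from 10 kb to 100 kb, 16 of 27 (59.3%) from 100 kb to 1 Mb and 10 of 29 (34.5%) beyond 1 Mb. Listed coding genes, again with mutual neighbours counted from both sides, showed the same order. Their shares were 18 of 20, 73 of 83, 160 of 220 (72.7%), 275 of 480 (57.3%) and 162 of 327 (49.5%). All 11 higher noncoding genes with a listed coding gene within 100 kb had a neighbour that was higher, and 25 of the 28 lower ones had a neighbour that was lower. Where the noncoding gene shared no exon base with any annotated gene 13 of 16 pairs within 100 kb (81.2%, 54.4% to 96.0%) had the same sign.

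**Figure D3:**
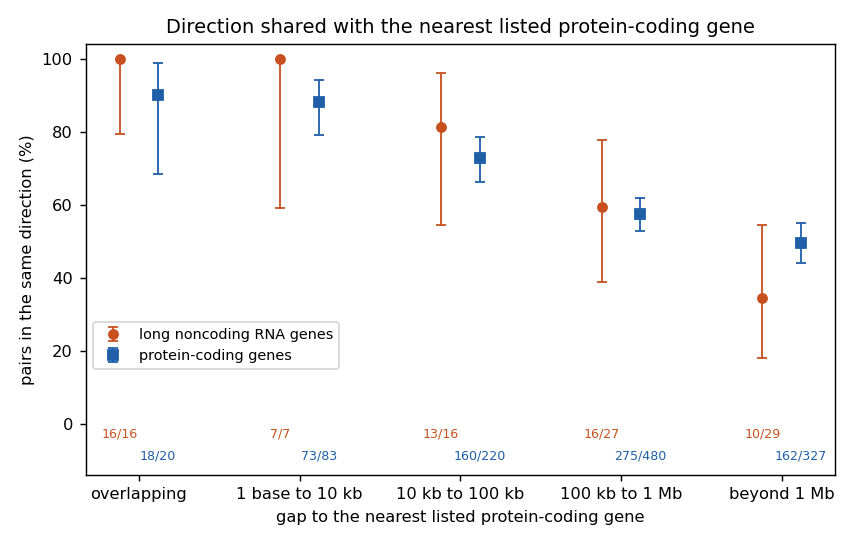
Percentage of pairs whose log2 fold changes had the same sign, by the gap to the nearest listed protein-coding gene, for the long noncoding RNA genes (orange circles) and for the listed protein-coding genes (blue squares), with exact binomial 95% intervals and pair counts below. Both series fall from the overlapping pairs (16/16 and 18/20) to those beyond 1 Mb (10/29 and 162/327). Coding genes nearest to each other are counted from both sides, which their intervals do not take into account.

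The fold changes of overlapping pairs had a median absolute difference of 0.33 on the log2 scale, with a range from 0.01 to 1.76. No step that marks the strand is described and the strand setting of the counting is not given in the sources used here. If strand was not used, reads in shared exon bases cannot be told apart between an antisense gene and its partner, so the shared bases are given with the pairs.

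Among the higher pairs, D130058E05Rik lies opposite Gbx2, a homeobox transcription factor, at chr1:89930234-89933290 (plus strand), with 946 shared exon bases. It had 47.9, 58.8 and 44.2 normalized counts in Irf8-OE against 1.12 and 4.80 in control BMDCs. Its log2 fold change of 3.86 ± 0.45 (SE, adjusted p = 0.00014) was the highest of the 95 genes in the limma fit on log2(normalized counts + 1). It was below that of Gm2694 after quantile normalization (2.59 against 2.78) and with a pseudocount of 10 (2.23 against 2.52). With TMM it was 3.67, as for Gm2694, and that of Gm1968, at the floor in the controls, was 5.75. Gbx2 itself had 23, 28.9 and 31.1 normalized counts in Irf8-OE against 0 and 0 in control BMDCs. Gm2694 (chr8:87460469-87525554, plus strand) overlaps Cbln1, which encodes a secreted synapse organiser, without sharing an exon base with it. Gm2694 had 75.7, 89.6 and 60.3 normalized counts in Irf8-OE against 5.62 and 3.84 in control BMDCs, a log2 fold change of 3.73 ± 0.29 (SE, adjusted p = 1.8e-05), and Cbln1 had 1056.3, 985 and 899 normalized counts in Irf8-OE against 70.8 and 51.8 in control BMDCs, a log2 fold change of 3.99 ± 0.15 (SE, adjusted p = 9.1e-07). In this pair the annotated exons are separate, and both genes were far above the controls in each Irf8-OE sample. Gm2694 shares 499 exon bases with annotated genes that are not protein-coding, and where its reads lie was not examined.

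Tnfsf13os lies opposite Tnfsf13, the gene of the B cell survival factor APRIL, at chr11:69682138-69691141 (plus strand), and shares 253 exon bases with coding genes there. It had 65.2, 71.9 and 60.3 normalized counts in Irf8-OE against 18.0 and 22.1 in control BMDCs, with a log2 fold change of 1.67 ± 0.22 (SE, adjusted p = 0.00024). Tnfsf13 had 142, 131 and 123 normalized counts in Irf8-OE against 68.6 and 50.9 in control BMDCs, a smaller log2 fold change of 1.14 ± 0.18 (SE, adjusted p = 0.00063). Plet1os, opposite the surface protein gene Plet1 with 261 shared exon bases, had 47.9, 33.6 and 47.2 normalized counts in Irf8-OE against 13.5 and 10.6 in control BMDCs, a log2 fold change of 1.75 ± 0.28 (SE, adjusted p = 0.00068). Plet1 rose with it, by a log2 fold change of 1.33 ± 0.09 (SE, adjusted p = 8.3e-06). 6330403L08Rik, a single-exon gene opposite Pdgfa with 813 shared exon bases, had 189, 193 and 149.6 normalized counts in Irf8-OE against 61.8 and 83.5 in control BMDCs, a log2 fold change of 1.28 ± 0.19 (SE, adjusted p = 0.00046) that was 0.96 with TMM, under the fold threshold. Pdgfa, a platelet-derived growth factor, had a log2 fold change of 1.11 ± 0.13 (SE, adjusted p = 0.00013). BE692007, opposite the myeloid membrane protein gene Ms4a6c with 1088 shared exon bases, had 50.8, 68.2 and 73.3 normalized counts in Irf8-OE against 18.0 and 23.0 in control BMDCs, a log2 fold change of 1.59 ± 0.25 (SE, adjusted p = 0.00068), and Ms4a6c had one of 1.98 ± 0.09 (SE, adjusted p = 2e-06).

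A530040E14Rik was the most highly expressed of the higher genes per kilobase. It lies at chr1:85105946-85114035 (plus strand) opposite C130026I21Rik, with which it shares 343 exon bases, and A530032D15Rik. It had 401, 393 and 364 normalized counts in Irf8-OE against 133 and 82.5 in control BMDCs, a log2 fold change of 1.87 ± 0.20 (SE, adjusted p = 8.2e-05). C130026I21Rik rose more, with 105, 119 and 94.4 normalized counts in Irf8-OE against 6.74 and 8.64 in control BMDCs and a log2 fold change of 3.63 ± 0.23 (SE, adjusted p = 7.6e-06), and this difference of 1.76 was the largest among the overlapping pairs. The locus holds related genes side by side, Gm16094 lies 328720 bases from C130026I21Rik, and reads from near-identical copies would make these counts uncertain.

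Among the lower pairs, Gm15663, a processed transcript at chr10:105573953-105583874 (plus strand) opposite Tmtc2, which encodes an endoplasmic reticulum membrane protein, shares 165 exon bases with it and starts 498 bases from its start. It had 66.1, 59.8 and 68.3 normalized counts in Irf8-OE against 418 and 422 in control BMDCs. Its samples agreed closely within each group, and the log2 fold change was -2.68 ± 0.13 (SE, adjusted p = 2.1e-06). Tmtc2 had 447, 536 and 574 normalized counts in Irf8-OE against 3018.7 and 2952.7 in control BMDCs, a log2 fold change of -2.53 ± 0.11 (SE, adjusted p = 1.7e-06). Gdap10 lies within an intron of Nampt, the rate-limiting enzyme of NAD salvage, on the same strand and with no shared exon base. It had 195, 251 and 257 normalized counts in Irf8-OE against 600.1 and 586 in control BMDCs, a log2 fold change of -1.35 ± 0.14 (SE, adjusted p = 7.3e-05), and Nampt had 4528.0, 5092.1 and 5189.4 normalized counts in Irf8-OE against 10854.2 and 11021.1 in control BMDCs, a log2 fold change of -1.15 ± 0.07 (SE, adjusted p = 6.7e-06). Reads of Gdap10 cannot be told apart from those of unspliced Nampt RNA.

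Gm13522 had the lowest log2 fold change of the 95 genes in the limma fit on log2(normalized counts + 1). It lies opposite Neb, the gene of the giant muscle protein nebulin, with 45 shared exon bases. It had 2.88, 0.9336 and 1.004 normalized counts in Irf8-OE against 32.6 and 31.7 in control BMDCs. With at most 3 reads in every Irf8-OE sample it was at least 11.09-fold lower there. The fitted log2 fold change of -3.75 ± 0.39 (SE, adjusted p = 8.2e-05) depends on the pseudocount, and so does its rank among genes at the floor. With TMM it was -4.52, and 2410003L11Rik (-6.53), Gm31904 (-6.36) and AC125141.3 (-4.60) were lower. Neb had 336, 348 and 372 normalized counts in Irf8-OE against 1976.9 and 1958.6 in control BMDCs, a log2 fold change of -2.48 ± 0.08 (SE, adjusted p = 4.8e-07). 1700097N02Rik, opposite Dnah8, an axonemal dynein heavy chain with which it shares 207 exon bases beside 90 with Glo1, had 1.92, 1.87 and 0 normalized counts in Irf8-OE against 25.9 and 12.5 in control BMDCs, and was at least 6.616-fold lower in Irf8-OE. Dnah8 had 38.3, 28.9 and 49.2 normalized counts in Irf8-OE against 456 and 424 in control BMDCs, a log2 fold change of -3.50 ± 0.23 (SE, adjusted p = 8.5e-06). 5830444B04Rik, opposite the ciliary gene Cfap74 with 453 shared exon bases, had 10.5, 4.67 and 11.1 normalized counts in Irf8-OE against 67.4 and 86.4 in control BMDCs, a log2 fold change of -3.07 ± 0.40 (SE, adjusted p = 0.00024) beside one of -2.86 ± 0.74 (SE, adjusted p = 0.0068) for Cfap74. Cfap74 was variable, with 9.59, 9.34 and 1.004 normalized counts in Irf8-OE against 36.0 and 50.9 in control BMDCs.

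Gm37035, a single-exon gene opposite P2ry1, the ADP receptor, shares 992 exon bases with it and had 5.75, 0.9336 and 0 normalized counts in Irf8-OE against 20.2 and 13.4 in control BMDCs. Its log2 fold change was -2.89 ± 0.76 (SE, adjusted p = 0.0072) beside -1.24 ± 0.14 (SE, adjusted p = 0.0001) for P2ry1. With control replicate 1 left out, the value for Gm37035 was -2.62 (adjusted p = 0.086), and with control replicate 2 left out it was -3.17 (adjusted p = 0.052), so its call needed both controls. 5830418P13Rik, opposite the lens filament gene Bfsp2 with 201 shared exon bases, had 6.71, 1.87 and 9.04 normalized counts in Irf8-OE against 34.8 and 27.8 in control BMDCs, a log2 fold change of -2.41 ± 0.55 (SE, adjusted p = 0.0037). It was -2.25 (adjusted p = 0.05) without control replicate 1. Gm15657, opposite the transmembrane mucin gene Muc13 with 184 shared exon bases beside 318 with Heg1, had 11.5, 9.34 and 13.1 normalized counts in Irf8-OE against 45.0 and 31.7 in control BMDCs, a log2 fold change of -1.67 ± 0.30 (SE, adjusted p = 0.0011) beside -1.76 ± 0.07 (SE, adjusted p = 1.1e-06) for Muc13. Gm15856, opposite the tubulin gene Tuba8 with 368 shared exon bases, was at least 4.482-fold lower in Irf8-OE.

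**Figure D4:**
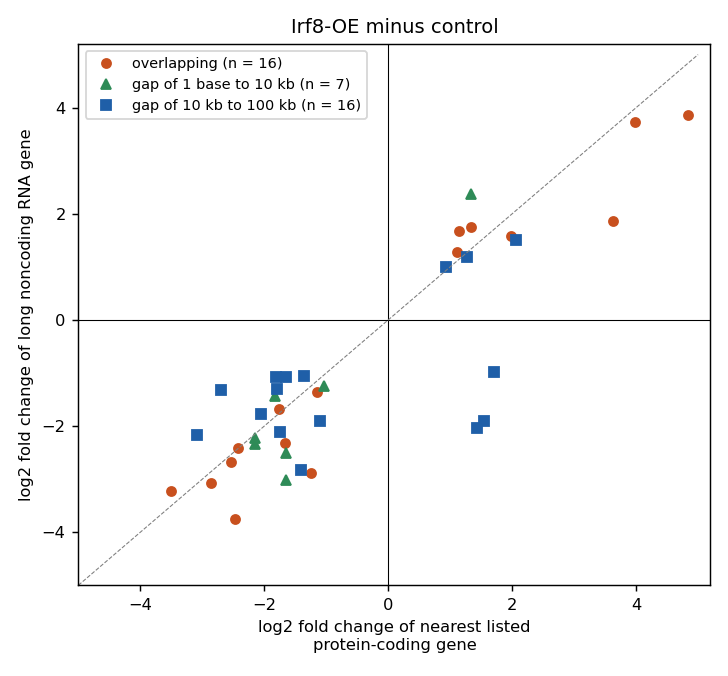
Log2 fold change of each long noncoding RNA gene (vertical axis) against that of its nearest listed protein-coding gene (horizontal axis), Irf8-OE minus control, for the 39 pairs within 100 kb, with the dashed line marking equal values. The 16 overlapping pairs (orange circles) and the 7 pairs with gaps up to 10 kb (green triangles) lie in the lower left or upper right, and 3 of the 16 pairs with larger gaps (blue squares) lie in the lower right.

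Gm15675 and Gm15674 lie 1836 and 1113 bases from Cd55, which encodes the complement regulator decay-accelerating factor, and share 1087 exon bases with each other on opposite strands. Gm15674 also shares 145 exon bases with Cd55b on the opposite strand, and Cd55b was not in the table used here. Gm15675 had 55.6, 56.0 and 80.4 normalized counts in Irf8-OE against 271 and 327 in control BMDCs, a log2 fold change of -2.22 ± 0.20 (SE, adjusted p = 4.4e-05). Gm15674 fell alike, by a log2 fold change of -2.33 ± 0.31 (SE, adjusted p = 0.0003), and Cd55 by one of -2.15 ± 0.09 (SE, adjusted p = 1.5e-06). Gm44226 and 4833403J16Rik, 20 and 1128 bases from Gimap5, a GTPase of lymphocyte survival, share 649 exon bases and were at least 5.556-fold and 4.647-fold lower in Irf8-OE. Gimap5 fell by a log2 fold change of -1.65 ± 0.28 (SE, adjusted p = 0.0009). E230016K23Rik starts 3420 bases from the start of the chemokine gene Ccl9, head to head, and had 36.4, 55.1 and 32.1 normalized counts in Irf8-OE against 100 and 92.1 in control BMDCs, a log2 fold change of -1.24 ± 0.26 (SE, adjusted p = 0.0026) beside -1.04 ± 0.10 (SE, adjusted p = 5e-05) for Ccl9. Gm4961 had 7.67, 5.602 and 6.03 normalized counts in Irf8-OE against 19.1 and 37.4 in control BMDCs, a log2 fold change of -1.91 ± 0.36 (SE, adjusted p = 0.0016), and Il6, the interleukin-6 gene 72959 bases away, had one of -1.10 ± 0.13 (SE, adjusted p = 0.00018). Among higher pairs without overlap, Gm19434, 3017 bases from Fam234b, had 25.9, 26.1 and 34.2 normalized counts in Irf8-OE against 5.62 and 3.84 in control BMDCs, a log2 fold change of 2.38 ± 0.30 (SE, adjusted p = 0.00021).

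In 3 pairs the noncoding gene was lower and its neighbour higher. Gm20627 lies 26632 bases from Fcgr1, which encodes the high-affinity IgG receptor CD64. It had 11.5, 7.47 and 11.1 normalized counts in Irf8-OE against 48.3 and 39.3 in control BMDCs, a log2 fold change of -2.04 ± 0.30 (SE, adjusted p = 0.00044), while Fcgr1 had 1276.7, 1292.2 and 1223.3 normalized counts in Irf8-OE against 434 and 498 in control BMDCs, a log2 fold change of 1.44 ± 0.08 (SE, adjusted p = 5.1e-06). Gm807 lies 77243 bases from Zfp366, a zinc finger gene known as DC-SCRIPT in dendritic cells. It had 7.67, 3.74 and 11.1 normalized counts in Irf8-OE against 24.7 and 32.6 in control BMDCs, a log2 fold change of -1.90 ± 0.44 (SE, adjusted p = 0.004), and Zfp366 had 423, 412 and 444 normalized counts in Irf8-OE against 121 and 173 in control BMDCs, a log2 fold change of 1.55 ± 0.16 (SE, adjusted p = 6.6e-05). F730016J06Rik, 55963 bases from the collagen gene Col5a1, had 32.6, 31.7 and 35.2 normalized counts in Irf8-OE against 62.9 and 71.0 in control BMDCs, and its log2 fold change of -0.99 ± 0.20 (SE, adjusted p = 0.002) was under the fold threshold. Col5a1 had 1330.4, 1260.4 and 1150.0 normalized counts in Irf8-OE against 345 and 421 in control BMDCs, a log2 fold change of 1.70 ± 0.11 (SE, adjusted p = 8.2e-06). Among the 95 genes themselves, 5 pairs lay within 100 kb of each other, of which 4 overlapped, and in each pair both genes were lower.

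The other 56 genes had no listed coding gene within 100 kb, and 49 of them were lower. Among these, 4930520O04Rik (chr9:114368303-114377229, plus strand), a processed transcript, had 263, 274 and 296 normalized counts in Irf8-OE against 616 and 665 in control BMDCs, a log2 fold change of -1.20 ± 0.09 (SE, adjusted p = 1.9e-05). Gm37233 had 145, 137 and 168 normalized counts in Irf8-OE against 399 and 429.9 in control BMDCs. Gm28187 (chr1:101892958-101895091, minus strand), a lincRNA gene, had 63.3, 84.0 and 88.4 normalized counts in Irf8-OE against 252 and 259 in control BMDCs, a log2 fold change of -1.70 ± 0.17 (SE, adjusted p = 7.5e-05). In these 3 genes, named after their values were seen, the groups were far apart against the spread within them. Gm1968, a lincRNA gene at chr16:29957927-29979184 (minus strand), was the gene at the floor in the controls, with 11.5, 3.74 and 6.03 normalized counts in Irf8-OE against 0 and 0 in control BMDCs, so that it was higher by at least 2.268-fold in Irf8-OE. Without the 41 genes that share an exon base with another annotated gene, 46 of the remaining 54 were lower and 8 were higher.

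Promoters were read for the genes that a RefSeq table (GRCm38.p6) holds, from 250 bases before to 50 bases after the start. The table held 63 promoters for 53 of the 95 genes, and for 29 of them its start lay within 100 bases of the deposited one. Motifs were searched on both strands. Where a gene had several promoters in the table, the 1 nearest to the deposited start was counted, whatever its distance. Among the motif carriers, the farthest counted starts lay 46262 bases (Gm15738), 3588 (Gm5122), 2244 (Gdap10), 1473 (Gm20627) and 1417 (Gm46224) from the deposited one. Such a window may not be the promoter of the gene as deposited. The interferon-stimulated response element, written GAAANNGAAA, which IRF family proteins bind, was in 2 of the 53 genes, Ptgs2os2, which was higher, and Gm46224, which was lower, and in 3.44% of 32851 promoters in the table. A promoter of Gm33370, a lower gene, also held it, but was not counted because another promoter of that gene lay nearer (940 against 26 bases). The ETS-IRF composite element, written GGAANNGAAA, was in 2 of 53, A530040E14Rik, which was higher, and 2010016I18Rik, which was lower, and in 2.72% of all. A GATA motif, written AGATAA, was in 8 of 53 (15.1%) against 11.2% of all promoters, and the AP-1 motif TGANTCA was in 4 of 53 (7.55%) against 7.81%. Both motifs were found in lower genes (8 and 4 of 44) and in 0 of the 9 higher genes with a promoter, and this split was not tested. At shares of 11.2% and 7.81% over all promoters, 9 promoters are too few to read 0 as a difference. A match describes the letters of a window and not a bound site.

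The promoters of 3 genes are printed 5′ to 3′ on the strand of the gene, because Ptgs2os2 and A530040E14Rik were the higher of the 2 carriers of each IRF-type motif and E330020D12Rik was a strongly expressed lower gene with a GATA motif. Capitals mark the motif, which in Ptgs2os2 and A530040E14Rik lies on the opposite strand and so reads as its reverse complement.
Ptgs2os2 (chr1:150164899-150165198, minus strand): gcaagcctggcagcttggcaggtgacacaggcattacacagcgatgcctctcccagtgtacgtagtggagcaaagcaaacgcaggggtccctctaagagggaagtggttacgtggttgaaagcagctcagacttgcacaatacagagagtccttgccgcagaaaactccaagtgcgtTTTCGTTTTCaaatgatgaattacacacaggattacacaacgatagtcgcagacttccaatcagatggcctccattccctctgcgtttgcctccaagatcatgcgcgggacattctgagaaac
A530040E14Rik (chr1:85105843-85106142, plus strand): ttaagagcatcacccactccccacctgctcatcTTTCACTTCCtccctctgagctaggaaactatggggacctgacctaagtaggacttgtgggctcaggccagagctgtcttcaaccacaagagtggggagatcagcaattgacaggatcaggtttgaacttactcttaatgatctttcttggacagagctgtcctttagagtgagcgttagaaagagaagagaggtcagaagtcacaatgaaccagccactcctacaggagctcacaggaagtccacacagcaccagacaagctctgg
E330020D12Rik (chr1:153414184-153414483, minus strand): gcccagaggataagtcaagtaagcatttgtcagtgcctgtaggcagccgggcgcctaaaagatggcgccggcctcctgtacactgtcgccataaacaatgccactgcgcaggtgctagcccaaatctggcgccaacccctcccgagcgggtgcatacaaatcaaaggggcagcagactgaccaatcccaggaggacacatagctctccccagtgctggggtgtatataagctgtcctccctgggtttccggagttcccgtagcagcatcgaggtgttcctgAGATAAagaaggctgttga
The element of Ptgs2os2 lies 73 bases before the start, that of A530040E14Rik lies 217 bases before a RefSeq start 147 bases from the deposited one, and the GATA motif of E330020D12Rik lies 31 bases after the start. No binding of IRF8 or of a GATA factor was measured here.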

How the data were processed

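RNA-seq of 3 Irf8-OE and 2 control BMDC samples was analysed from the table of 1355 genes that the authors had called as different. The authors deposited normalized counts per sample, a signal equal to the reads of a gene divided by 1 size factor per sample, not scaled to gene length. Their group means, log2 fold changes, p-values and adjusted p-values were not used. The submitters' processing notes name fastp, HISAT2 2.0.5, featureCounts 1.5.0-p3, DESeq2 1.20.0, edgeR 3.22.5 and mm10, and the strand setting is not given in the sources used here. Sample groups came from the labels.

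The long noncoding RNA genes were the rows with a long noncoding biotype that lie on neither X nor Y. These genes, the lists of markers and known noncoding RNAs, and the tests were chosen with earlier results of these data known. The test was limma 3.58.1 in R 4.3.3, with trended empirical Bayes moderation and no covariate, run over all 1355 genes on log2(normalized counts + 1). A gene was called when its Benjamini-Hochberg adjusted p was below 0.05 and its log2 fold change was beyond 1 in either direction. The nearest listed protein-coding gene was found by start and end, with a gap of 0 for overlaps. Overlaps, exons and shared bases came from GENCODE vM21, in which 95 of 95 genes had the same start and end. Promoters and miRNAs came from RefSeq tables (GRCm38.p6).

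Genes were named where their symbol was not a Gm number, Rik name or contig name, were among the 5 higher or 5 lower genes with the largest change at a mean of at least 20 normalized counts, were among the 5 highest per kilobase, or were among the 15 nearest to a listed coding gene. Of the 30 named in this way each is described. Other genes were named after their values were seen, namely those nearest to other listed genes, at the floor, not called, with a miRNA or motif, or far apart between groups.

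All values were whole multiples of 1 step per sample (100.0% within 0.01 reads), which gave back the reads. The step of Irf8-OE 3, 1.0043 normalized counts per read, was near 1, so tests on reads with DESeq2 1.42.0 and edgeR 4.0.16 were alternatives. Depth on the listed genes is not library depth, and intervals and floors cover counting error only. Alternatives were pseudocounts of 0.1 and 10, a minimum of 10 normalized counts, quantile normalization, DESeq2, edgeR with TMM, a replicate block, leaving out X and Y genes or each sample, and gaps of 10 kb and 1 Mb. Added after the data were seen were edgeR with the deposited scaling, a block on the description numbers and leaving out genes that share exon bases. The tests were checked on simulated data.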

Additional observations from a re-analysis of the deposited data

Results flagged for a closer look

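Besides the autosomal genes, 4 long noncoding RNA genes on X or Y were in the table, and 2 of them stood above the controls. Xist, the X-inactivation transcript, had a mean of 12436.6 normalized counts in Irf8-OE against 0.5619 in the controls. G530011O06Rik, on X, had a mean of 22.4 in Irf8-OE against 4.81 in the controls, with 27.8, 23.3 and 16.1 against 6.74 and 2.88. F630028O10Rik, on X, was lower in Irf8-OE (mean 186.3 against 690.6), and Gm29650, on Y, was at 0 in each Irf8-OE sample and had 15.7 and 12.5 in the controls. These rows were outside the set described because the sex markers differ with the group.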

How the results depend on the processing

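No direction of the 95 genes (90 with the minimum of 10 normalized counts) changed under any of the 15 alternatives. Because the groups of each gene were free of overlap, another pseudocount or leaving out a sample or other genes could not reverse a direction. For those alternatives the outcome was therefore fixed in advance. Called higher were 17 genes, and 10 after quantile normalization, where the median of all listed genes shifted by -0.33 on the log2 scale, and 14 with TMM scaling (shift -0.31). Among called listed genes the share higher was 58.6%, 49.4% with quantile normalization and 51.5% with TMM, and among the called noncoding genes 18.3%, 11.5% and 15.4%. Irf8 had a log2 fold change of 0.92 (edgeR, adjusted p = 4.8e-07) with TMM, under the fold threshold. A pseudocount of 10 left 68 genes called, 13 higher and 55 lower, and DESeq2 called 95. Leaving out X and Y genes kept 17 and 76. The same-sign share of 92.3% within 100 kb was 100% within 10 kb and 78.8% within 1 Mb. Leaving out each sample in turn gave 81 to 93 called genes, 14 to 18 higher and 67 to 75 lower, and 71 genes were called in each run. Of 450 values of the 30 named genes under alternatives, 438 kept their call and 12 fell below a threshold, in Mir17hg, Ptgs2os2, Snhg18, 6330403L08Rik, 5830418P13Rik and Gm37035. The cause of these shifts was not tested.

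Same-numbered samples did not deviate together (r across genes of 0.027 and 0.021 by title, -0.021 and 0.009 by description). The deviations of 2 controls from their mean mirror each other, so these values cannot decide whether the numbers pair the samples. With the replicate block 93 genes were called by title number (18 higher, 75 lower) and 87 by description number (17 higher, 70 lower). Depth limits the 10 genes at the floor, for which a fold is a lower bound and any fitted log2 fold change depends on the pseudocount.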
